A study of Oryza sativa with 28 samples.

Results

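The 150 genes described here are rice loci whose RNA was higher at the uninucleate stage than at the meiosis stage in panicles of both the fertile and the sterile type. They were chosen from the deposited FPKM values, which scale the fragments of a gene by its length and by the size of the library, of 45273 loci with LOC_Os identifiers. Of these, 15410 loci had at least 1 FPKM in each of the 6 uninucleate-stage libraries. Each of them was scored by the smaller of its 2 group means at the uninucleate stage, divided by the larger of its 2 group means at the meiosis stage plus 0.5 FPKM, and the 150 highest scores were kept. All plants were the indica photo-thermosensitive genic male sterile line Wuxiang S (WXS), which carries the mutant tms5 allele, so the allele is shared by all groups. WXS(F) plants were male fertile after transfer to a cooler growth chamber when the panicle was about 1 cm long, and WXS(S) plants were male sterile and stayed in the summer paddy field. The 4 groups are FP4 (WXS(F), uninucleate stage, P4), SP4 (WXS(S), uninucleate stage), FP3 (WXS(F), meiosis stage, P3) and SP3 (WXS(S), meiosis stage), each with 3 RNA-seq libraries and 2 ATAC-seq libraries of whole young panicles. A difference between WXS(F) and WXS(S) cannot be told apart from a difference between the growth chamber and the field, and only 1 line was used. The labels do not say whether the libraries of a group came from separate plants, so p-values measure the spread between these samples. In such bulk tissue, fewer cells of a type and less RNA per cell cannot be told apart.

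In the rice anther, pollen mother cells pass through meiosis to form tetrads, and each released microspore then has a single nucleus until pollen mitosis begins. Between these stages the tapetum, the innermost layer of the anther wall, feeds the microspores and secretes the lipid and phenolic precursors of the pollen wall, while epidermal cells build the anther cuticle. The lemma, palea and rachis of the panicle elongate, form cell walls and turn green over the same period. RNA of a whole panicle is therefore a mixture of these tissues.

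The stage difference itself chose the genes and is given as a description. The median over the 150 genes of the group mean was 21.4 FPKM in FP4, 16.6 FPKM in SP4, 4.03 FPKM in FP3 and 1.95 FPKM in SP3. Over the 15410 candidate loci the same median lay between 7.85 and 7.97 FPKM in all 4 groups. The ratio of the P4 mean to the P3 mean plus 0.5 FPKM had a median of 4.73 in WXS(F), with a range of 2.30 to 36.6, and a median of 5.17 in WXS(S), with a range of 2.32 to 121. It was larger in WXS(S) for 80 of the genes and larger in WXS(F) for 70. This balance depends on the added 0.5 FPKM, which lowers the ratio more where the P3 mean is low. In the interaction of type and stage tested below on counts, the rise was larger in WXS(S) for 95 genes and in WXS(F) for 55. Together the 150 genes held 2.59% to 3.04% of the summed FPKM of an FP4 library, 2.22% to 2.67% in SP4, 0.460% to 0.555% in FP3 and 0.254% to 0.492% in SP3. Every P4 library exceeded every P3 library for 146 of the 150 genes. Between 26 and 31 of the genes were below 1 FPKM in an FP3 library and between 50 and 59 in an SP3 library.

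**Figure D1:**
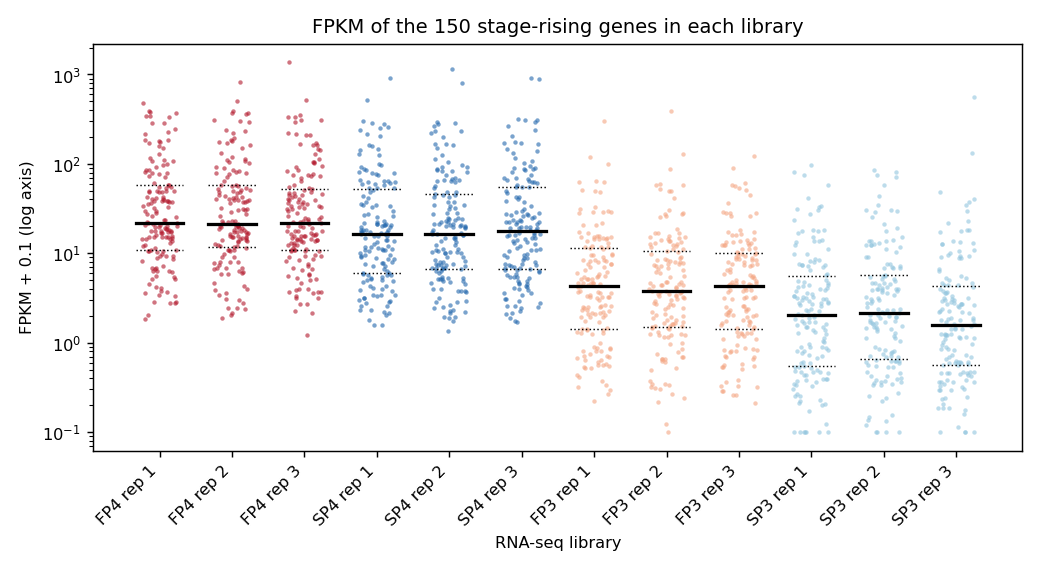
FPKM plus 0.1 on a log axis for the 150 genes in each of the 12 RNA-seq libraries; each point is 1 gene, the solid bar is the median and the dotted bars are the quartiles. The P4 libraries lie above the P3 libraries by the choice of the genes, and the library medians are 16.3 to 21.5 FPKM at P4 and 1.48 to 4.16 FPKM at P3.

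Total counts per library ranged from 30577833 to 51193158, and TMM scaling factors from 0.917 to 1.08. The SP3 libraries differed most among themselves. The median coefficient of variation of the 150 genes was 6.57% over the FP4 libraries, 7.68% over SP4, 10.5% over FP3 and 30.4% over SP3, and over the candidate loci it was 8.40%, 7.98%, 7.34% and 21.0% in the same groups. In 3 of the genes the replicates of a group differed more than 10-fold with at least 100 counts in the highest of them; such gaps at lower counts were not listed. LOC_Os09g01000 had 394, 822 and 1363 FPKM in the FP4 libraries, 516, 812 and 918 FPKM in SP4, 302, 386 and 14.1 FPKM in FP3, and 0.708, 13.8 and 564 FPKM in SP3, and its SP3 replicate 3 lay above the lowest library of each other group. LOC_Os07g37850 had 286, 310.0 and 12.3 FPKM in the FP4 libraries, 207, 221 and 240.5 FPKM in SP4, 0.783, 52.5 and 53.4 FPKM in FP3, and 1.95, 1.58 and 12.6 FPKM in SP3. LOC_Os12g10600, annotated to photosynthesis and the thylakoid, had 0.860, 12.3 and 2.89 FPKM in SP3. These 3 genes were called in none of the tests given here.

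Function was known for part of the set. Gene ontology (GO) entries from the study's supplement covered 66 of the 150 genes and gave no term for 84, and because those entries were shortened, a missing term says nothing about a gene. Genes without an entry are given by locus, except where the study's supplement gave a Swiss-Prot match or a gene name.

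The 10 genes with the highest scores ran from LOC_Os10g05910, with a score of 18.6, to LOC_Os05g33150, with a score of 8.04 (median of the 150 genes 2.97, of the candidates 0.685). LOC_Os10g05910 had 218, 222 and 210.0 FPKM in the FP4 libraries, 158, 166 and 175 FPKM in SP4, 9.45, 8.12 and 7.82 FPKM in FP3, and 2.62, 1.04 and 1.15 FPKM in SP3. LOC_Os10g05930 had 342, 370.2 and 332 FPKM in the FP4 libraries, 259.9, 287 and 297 FPKM in SP4, 16.7, 16.7 and 17.3 FPKM in FP3, and 1.804, 1.86 and 1.796 FPKM in SP3. Both loci lie in a run of neighbouring loci on chromosome 10 that is described after the tests. LOC_Os07g35940, annotated with hydrolase activity, was close to absent at P3, with 12.8, 12.1 and 11.4 FPKM in the FP4 libraries, 10.9, 9.92 and 10.9 FPKM in SP4, 0.313, 0.235 and 0.192 FPKM in FP3, and 0.296, 0.0558 and 0.262 FPKM in SP3. LOC_Os08g43290, annotated with lipid binding, had 95.9, 106 and 93.6 FPKM in the FP4 libraries, 101, 106 and 116 FPKM in SP4, 8.13, 8.35 and 9.33 FPKM in FP3, and 1.51, 2.03 and 1.32 FPKM in SP3. LOC_Os08g38810, annotated with the response to stress, had 20.6, 21.2 and 17.5 FPKM in the FP4 libraries, 17.3, 24.4 and 26.7 FPKM in SP4, 1.33, 1.35 and 1.39 FPKM in FP3, and 0.365, 0.801 and 0.459 FPKM in SP3. In each of these 5 genes the 6 P4 libraries lay above all 6 P3 libraries, and in 4 of them, not in LOC_Os07g35940, all 3 FP3 libraries lay above all 3 SP3 libraries.

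LOC_Os03g15340, annotated with pollination, flower development and the extracellular region, had 49.7, 53.4 and 48.5 FPKM in the FP4 libraries, 18.4, 20.9 and 24.6 FPKM in SP4, 2.09, 1.68 and 1.98 FPKM in FP3, and 2, 1.42 and 1.01 FPKM in SP3, and its FP4 libraries lay above the SP4 libraries. LOC_Os08g45150 had 157, 164 and 147.6 FPKM in the FP4 libraries, 96.8, 97.8 and 108 FPKM in SP4, 12.9, 10.4 and 11.01 FPKM in FP3, and 3.81, 4.58 and 2.87 FPKM in SP3. LOC_Os04g33150 was nearly level between the types at P4, with 42.3, 45.1 and 43.2 FPKM in the FP4 libraries, 48.0, 45.2 and 49.1 FPKM in SP4, 5.396, 4.46 and 4.44 FPKM in FP3, and 4.32, 3.93 and 2.40 FPKM in SP3. LOC_Os09g30320 had 37.9, 49.1 and 40.8 FPKM in the FP4 libraries, 15.6, 37.0 and 19.3 FPKM in SP4, 2.42, 2.88 and 2.12 FPKM in FP3, and 0.367, 0.506 and 0.555 FPKM in SP3, with SP4 replicate 2 well above the other two SP4 libraries. LOC_Os05g33150, annotated with signal transduction and the vacuole, had 341, 357 and 310.1 FPKM in the FP4 libraries, 142, 150.3 and 166 FPKM in SP4, 20.8, 16.8 and 17.9 FPKM in FP3, and 3.84, 5.04 and 2.74 FPKM in SP3, and both of its type differences were without overlap.

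**Figure D2:**
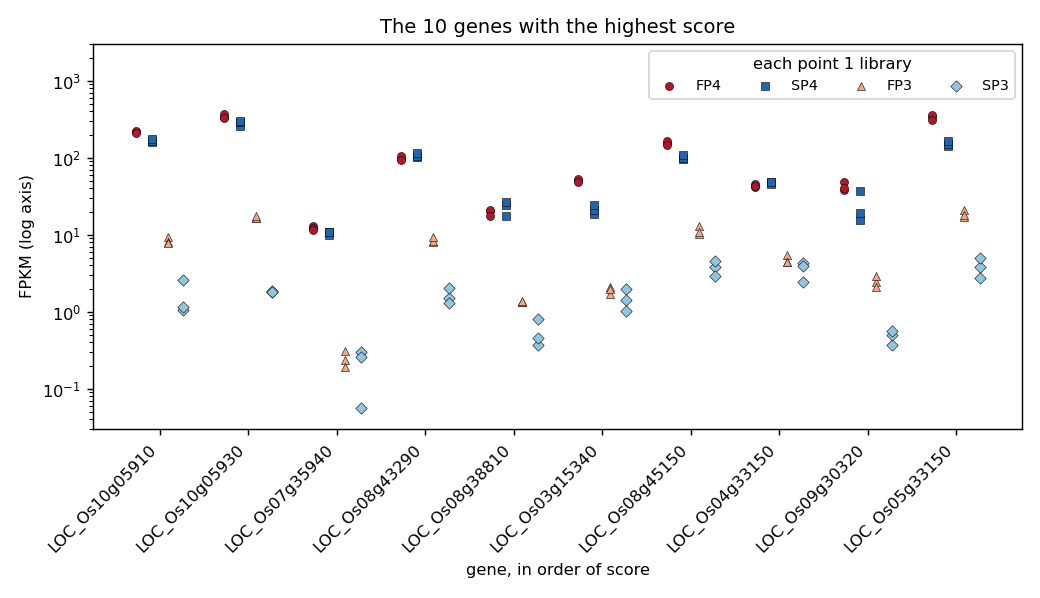
FPKM on a log axis of the 10 genes with the highest score; each point is 1 of 12 libraries. The P4 points of each gene lie above its P3 points, as the genes were chosen for that, and the distance between FP3 and SP3 differs from gene to gene, from 16.7 to 17.3 FPKM against 1.796 to 1.863 FPKM in LOC_Os10g05930 to overlapping values in LOC_Os07g35940.

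At the lower end, the last 3 genes inside the set had scores of 2.300 (LOC_Os05g38420), 2.295 (LOC_Os06g45940) and 2.293 (LOC_Os03g28330), and the first 3 outside had 2.292 (LOC_Os03g52239), 2.291 (LOC_Os12g18960) and 2.290 (LOC_Os11g13890). LOC_Os03g28330, annotated to the vacuole, had mean levels of 337 FPKM in FP4, 283.5 FPKM in SP4, 123.1 FPKM in FP3 and 102.6 FPKM in SP3. LOC_Os03g52239 just outside had 4.795, 4.19, 1.33 and 1.14 FPKM in the same groups. Levels differed widely on both sides of the boundary, as LOC_Os06g45940 inside had 2.57 FPKM in FP4 and LOC_Os11g13890 outside had 36.8 FPKM. The boundary thus lies between nearly equal scores and does not sort genes by level.

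The score treats WXS(F) and WXS(S) alike and so fixes no direction between them, but it was computed from the same values, and the tests between the types are read with that limit. Counts were tested over all genes with edgeR's quasi-likelihood test, and a call required a log2 fold change beyond 1 in either direction together with an adjusted p (Benjamini-Hochberg) under 0.05. Fold changes are WXS(F) over WXS(S).

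At P4 the log2 fold change was above 0, towards the fertile type, in 114 of the 150 genes and below 0 in 36. Of the 150 genes tested, 42 were called higher in FP4 (28.0%, against 15.4 percent of all 24645 genes tested) and 5 were called lower (3.33%, against 6.87 percent). The median log2 fold change was 0.40, against 0.00 over all genes tested. With DESeq2 and without the filter on low counts, which add genes near 0 counts, the median of all genes was 0.40 and 0.36, close to the 0.41 and 0.38 of the 150 genes. Over the 24645 genes that pass the filter it was 0.01 and -0.02 in the same fits. In FPKM, all 3 FP4 libraries lay above all 3 SP4 libraries for 90 genes (60%, against 30.0 percent of the genes tested) and below them for 27 (18%, against 28.4 percent).

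The largest difference at P4 was in LOC_Os01g06580, whose closest Swiss-Prot match is a fasciclin-like arabinogalactan protein of Arabidopsis, a kind of glycoprotein of the cell surface. It had 129, 132 and 128 FPKM in FP4, against 8.71, 8.91 and 7.94 FPKM in SP4 (log2 fold change 3.94, SE 0.077, adjusted p = 5.86e-07, edgeR). LOC_Os09g13650 had 48.0, 42.5 and 39.8 FPKM in FP4, against 4.77, 6.73 and 7.27 FPKM in SP4 (log2 fold change 3.23, SE 0.069, adjusted p = 7.86e-07). LOC_Os06g12500 had 17.7, 19.8 and 19.9 FPKM in FP4, against 2.49, 2.24 and 2.03 FPKM in SP4 (log2 fold change 3.10, SE 0.13, adjusted p = 7.88e-06). LOC_Os01g41140, matched to the Arabidopsis splicing factor SR45, had 286, 292 and 295 FPKM in FP4, against 33.9, 34.9 and 40.3 FPKM in SP4 (log2 fold change 3.02, SE 0.077, adjusted p = 1.25e-06). LOC_Os01g14670, matched to a rice germin-like protein, a family of secreted cell wall glycoproteins, had 247, 235 and 210.3 FPKM in FP4, against 27.1, 30.9 and 33.5 FPKM in SP4 (log2 fold change 2.94, SE 0.076, adjusted p = 1.29e-06). In all 5 genes the lowest FP4 library was at least several times the highest SP4 library.

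The 5 genes called lower in FP4 included 2 annotated with lipid binding. LOC_Os01g49650, annotated with lipid binding and transport, had 17.7, 30.6 and 33.1 FPKM in FP4, against 253, 264 and 138 FPKM in SP4 (log2 fold change -2.98, SE 0.37, adjusted p = 0.000768, edgeR). LOC_Os09g35700, also annotated with lipid binding, had the highest mean level over the P4 libraries after LOC_Os09g01000, with 171, 196 and 223 FPKM in FP4, against 902, 1157 and 888 FPKM in SP4 (log2 fold change -2.30, SE 0.17, adjusted p = 8.80e-05). LOC_Os05g30400 had 29.8, 37.2 and 35.9 FPKM in FP4, against 214, 198 and 206 FPKM in SP4 (log2 fold change -2.55, SE 0.12, adjusted p = 9.96e-06). LOC_Os07g22850, annotated with secondary metabolic process, had 21.4, 21.5 and 21.4 FPKM in FP4, against 62.2, 53.7 and 63.4 FPKM in SP4 (log2 fold change -1.46, SE 0.069, adjusted p = 1.23e-05). LOC_Os03g47910 had 37.3, 39.3 and 33.9 FPKM in FP4, against 78.6, 82.6 and 85.3 FPKM in SP4 (log2 fold change -1.14, SE 0.047, adjusted p = 6.48e-06). In all 5 the FP4 and SP4 libraries did not overlap, and the P4 means were above their P3 levels in both types.

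The 5 genes most nearly equal between the types at P4 had log2 fold changes between -0.01 and 0.03. LOC_Os09g19650, annotated with lipid metabolic process, had 15.5, 14.1 and 12.8 FPKM in FP4, against 13.3, 13.5 and 16.3 FPKM in SP4. LOC_Os12g42610, annotated with flower development, had 15.2, 13.7 and 13.3 FPKM in FP4, against 14.1, 14.7 and 12.01 FPKM in SP4. LOC_Os03g50160, annotated with pollination, had 17.2, 19.2 and 17.7 FPKM in FP4, against 18.3, 17.3 and 18.03 FPKM in SP4. LOC_Os01g55610 had 3.24, 3.29 and 3.27 FPKM in FP4, against 3.33, 3.05 and 3.35 FPKM in SP4 and LOC_Os04g43800 had 1.73, 1.95 and 1.13 FPKM in FP4, against 1.47, 1.64 and 1.63 FPKM in SP4. The libraries of the types overlapped in all 5.

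At P3, 147 of the 150 genes passed the filter on low counts, and the log2 fold change was above 0 in 131 of them and below 0 in 16. Of these, 56 were called higher in FP3 (38.1%, against 14.8 percent of all 24405 genes tested) and 1 was called lower (0.68%, against 6.74 percent). The median log2 fold change was 0.88, against 0.04 over all genes tested. In FPKM, all 3 FP3 libraries lay above all 3 SP3 libraries for 81 genes (54.0%, against 27.1 percent) and below them for 4 (2.67%, against 23.6 percent). Many of the levels at P3 were low: on the log2(FPKM + 1) scale, where low genes count for less, limma called 36 higher and 1 lower. The 3 genes that did not pass the filter, LOC_Os04g43800, LOC_Os05g38420 and LOC_Os09g36120, all had under 0.3 FPKM in each P3 library.

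LOC_Os11g02424, annotated with lipid binding, had 1.65, 1.83 and 1.55 FPKM in FP3, against 0.0233, 0.0335 and 0 FPKM in SP3 (log2 fold change 5.71, SE 0.58, adjusted p = 0.000584, edgeR). Its SP3 libraries held 3, 3 and 0 counts, so the size of this ratio rests on very small counts. LOC_Os09g13650 had 1.31, 1.56 and 1.18 FPKM in FP3, against 0, 0 and 0.139 FPKM in SP3 (log2 fold change 4.44, SE 1.30, adjusted p = 0.0323). LOC_Os01g06580 had 3.35, 2.62 and 3.16 FPKM in FP3, against 0.127, 0.144 and 0.198 FPKM in SP3 (log2 fold change 4.25, SE 0.33, adjusted p = 0.000198), a difference of about the size seen at P4. LOC_Os03g48220 had 5.42, 4.06 and 3.94 FPKM in FP3, against 0.266, 0.516 and 0.265 FPKM in SP3 (log2 fold change 3.73, SE 0.29, adjusted p = 0.000198). LOC_Os02g33550 had 8.06, 8.41 and 8.26 FPKM in FP3, against 0.907, 0.940 and 0.728 FPKM in SP3 (log2 fold change 3.34, SE 0.14, adjusted p = 2.07e-05). LOC_Os09g13650 had 0 counts in SP3 replicates 1 and 2, so its fitted value gives no size, and without SP3 replicate 3 it was 10.23. Its call did not pass in 6 alternatives, among them DESeq2 and leaving out any 1 of the FP3 libraries. The single gene called lower in FP3 was LOC_Os01g49650, with 4.52, 3.71 and 3.83 FPKM in FP3, against 9.82, 7.56 and 13.4 FPKM in SP3 (log2 fold change -1.32, SE 0.31, adjusted p = 0.0152), and this call was lost without FP3 replicate 3 or without SP3 replicate 3.

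Across both stages, 26 genes were called higher in WXS(F) at both, 16 at P4 only and 29 at P3 only. Of the 16, LOC_Os05g38420 was not tested at P3. LOC_Os01g49650 was called lower at both. LOC_Os07g22850 was called lower in FP4 and higher in FP3, 3 genes were called lower at P4 only, and 74 were called at neither stage, of which LOC_Os04g43800 and LOC_Os09g36120 were not tested at P3. The shares of all genes in these joint classes were not computed, so the counts are a description only. The order of the 4 group means was SP3, FP3, SP4, FP4 from low to high in 98 genes (65.3%). The order SP3, FP3, FP4, SP4 held in 29 genes, FP3, SP3, SP4, FP4 in 14, and FP3, SP3, FP4, SP4 in 9. These 4 orders are the only ones that the rule allows, and 3279 of the candidate loci had one of them. The order SP3, FP3, SP4, FP4 made up 45.5% of those loci. The other orders, in the sequence given above, made up 21.9%, 15.9% and 16.7%.

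**Figure D3:**
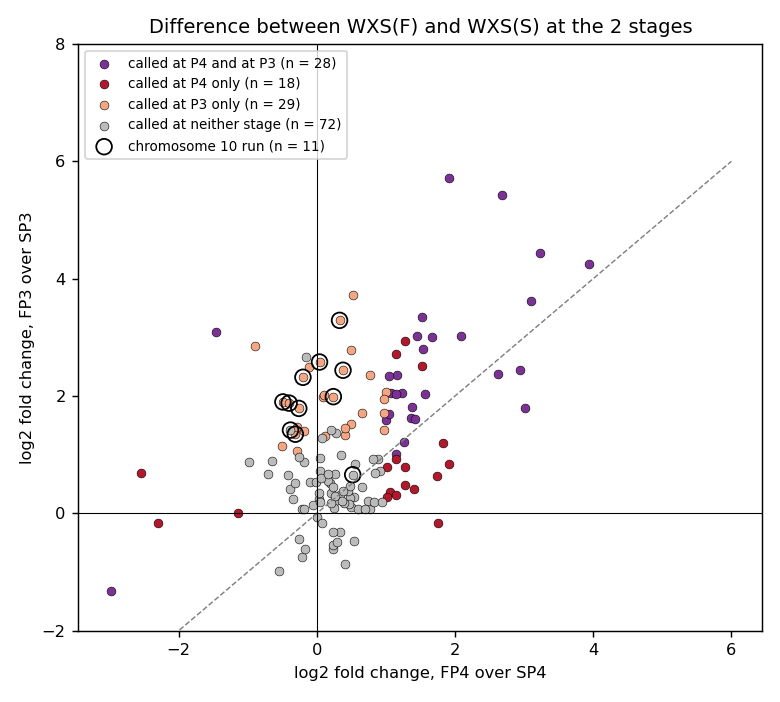
Log2 fold change of WXS(F) over WXS(S) at P4 (x axis) and at P3 (y axis) for the 147 genes tested at both stages; each point is 1 gene, coloured by the stages at which edgeR called it, with rings around the 11 genes of the chromosome 10 run, and the dashed line marks equal values. Most points lie above 0 on both axes, with 28 genes called at both stages, 18 at P4 only in either direction and 29 at P3 only. The shares of all genes in these classes were not computed.

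**Figure D4:**
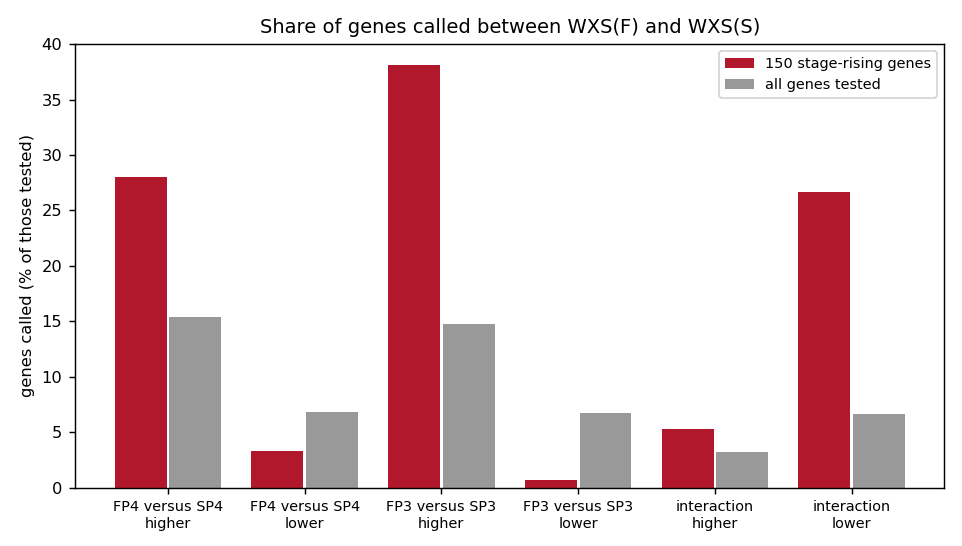
Percentage of genes called by edgeR in each test and direction, for the 150 genes (147 at P3) and for all genes tested. The 28.0% and 38.1% called higher in WXS(F) at P4 and at P3, and the 26.7% lower in the interaction, stand beside 15.4, 14.8 and 6.62 percent of all genes.

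The interaction of type and stage compared the WXS(F) over WXS(S) ratio at P4 with that at P3, in 1 model of the 12 libraries. A negative value means that the WXS(F) over WXS(S) ratio was smaller at P4, or that the rise from P3 was larger in WXS(S). It was called in 48 of the 150 genes, against 9.87 percent of all genes tested. Among the 150 genes, 8 were called with a positive value (5.33%, against 3.26 percent of all 26392 genes tested) and 40 with a negative one (26.7%, against 6.62 percent). These include LOC_Os04g43800 and LOC_Os09g36120, which entered only through their P4 levels. Among the 147 genes also tested at P3, 7 were called positive and 39 negative. The median was -0.43, against -0.02 over all genes tested. On the log2(FPKM + 1) scale the median of the 150 genes was -0.01, with 14 called positive and 25 negative by limma, so the median of the values depends on that scale. Leaving out 1 library gave 33 to 45 negative calls, and the count of positive calls was 12 without SP3 replicate 3 and 5 without FP4 replicate 2 or SP3 replicate 1.

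Among the genes with a negative interaction, LOC_Os07g22850 had 4.59, 3.92 and 3.60 FPKM in FP3, against 0.602, 0.526 and 0.358 FPKM in SP3, while at P4 the order of the types was the opposite (interaction log2 fold change -4.48, SE 0.16, adjusted p = 9.88e-08, edgeR). LOC_Os04g24530, annotated with anatomical structure morphogenesis, had 76.0, 70.4 and 63.5 FPKM in the FP4 libraries, 124, 124 and 145 FPKM in SP4, 15.3, 15.2 and 15.95 FPKM in FP3, and 2.22, 2.98 and 1.69 FPKM in SP3 (interaction log2 fold change -3.68, SE 0.16, adjusted p = 2.59e-07). LOC_Os05g30400 had 15.6, 13.5 and 12.9 FPKM in FP3, against 7.84, 10.3 and 9.02 FPKM in SP3 (interaction log2 fold change -3.19, SE 0.19, adjusted p = 2.14e-06), and its P4 levels are given above. LOC_Os11g02424 had 27.7, 29.2 and 25.3 FPKM in FP4, against 7.08, 6.62 and 8.23 FPKM in SP4 (interaction log2 fold change -3.70, SE 0.39, adjusted p = 0.000116), with the small SP3 counts already named; on the log2(FPKM + 1) scale the sign of its interaction turned to 0.38. LOC_Os04g43800 had 0.167, 0 and 0.267 FPKM in FP3 and was at 0 counts in all 3 SP3 libraries, so its fitted interaction of -7.66 depends on the prior count of the fit and is no measure of size.

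The 5 largest positive interactions among genes of at least 1 CPM were smaller. LOC_Os04g32960, annotated with RNA binding and transport, had 7.16, 6.69 and 6.67 FPKM in the FP4 libraries, 2.09, 2.11 and 1.98 FPKM in SP4, 0.421, 0.244 and 0.279 FPKM in FP3, and 0.332, 0.300 and 0.457 FPKM in SP3 (interaction log2 fold change 1.96, SE 0.33, adjusted p = 0.00210, edgeR). LOC_Os12g19381, annotated to the ribosome and the extracellular region, had 26.2, 27.8 and 26.2 FPKM in the FP4 libraries, 17.3, 24.1 and 19.4 FPKM in SP4, 3.20, 3.19 and 3.77 FPKM in FP3, and 8.17, 6.70 and 5.20 FPKM in SP3 (interaction log2 fold change 1.33, SE 0.21, adjusted p = 0.00157). LOC_Os01g41140 had 9.67, 8.64 and 8.52 FPKM in FP3, against 3.05, 3.06 and 2.14 FPKM in SP3 (interaction log2 fold change 1.29, SE 0.12, adjusted p = 3.50e-05), and LOC_Os05g48270, annotated with catabolic process, had 55.2, 56.0 and 55.7 FPKM in the FP4 libraries, 16.8, 16.5 and 16.7 FPKM in SP4, 6.10, 6.67 and 6.34 FPKM in FP3, and 4.55, 4.61 and 4.08 FPKM in SP3 (interaction log2 fold change 1.16, SE 0.095, adjusted p = 1.79e-05). LOC_Os09g36120 had 6.24, 7.87 and 6.34 FPKM in the FP4 libraries, 3.74, 5.19 and 4.19 FPKM in SP4, 0.121, 0.118 and 0.113 FPKM in FP3, and 0.235, 0.290 and 0.0855 FPKM in SP3 (interaction log2 fold change 1.33, SE 0.38, adjusted p = 0.0329), a call that was lost in 13 alternatives. It did not pass the filter at P3 and entered the test only through its P4 levels. In LOC_Os04g32960 the types overlapped at P3 and were apart at P4, and in LOC_Os12g19381 SP3 lay above FP3 while 1 SP4 library lay close to the FP4 libraries. LOC_Os12g19470, close to LOC_Os12g19381 in locus number and on the photosynthesis list given below, has the same ribosome and extracellular terms. These terms alone thus do not set LOC_Os12g19381 apart from photosynthesis genes.

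Some of the genes had neighbouring locus numbers. With neighbours defined as loci whose numbers differ by at most 100, 28 of the 150 genes fell into 9 runs. The longest run, singled out after its values were seen, held 11 of them, from LOC_Os10g05790 to LOC_Os10g06000 on chromosome 10, among 18 listed loci. It took ranks 1, 2, 15, 16, 18, 19, 23, 25, 39, 54 and 84 of the set. Summed over the 11 genes, the FPKM was 1126 to 1275 in FP4, 1004 to 1121 in SP4, 132 to 137 in FP3 and 27.1 to 37.1 in SP3. The FP4 and SP4 sums thus lay close together, with each FP4 sum above each SP4 sum. At P3 the sum was several times higher in FP3 than in SP3.

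By edgeR 0 of the 11 genes were called between FP4 and SP4 (median log2 fold change -0.20), against 22.3 percent of all genes tested, and DESeq2 also called 0. At an unadjusted p under 0.05 there were 4 higher and 6 lower in FP4, all of them within the fold threshold. Of these, LOC_Os10g05880 had an adjusted p of 0.0528 (edgeR). The others had an adjusted p under 0.05 and missed a call only by the fold threshold. At P3 9 of 11 were called higher in FP3 (median 1.90), against 14.8 percent of all genes tested. A called negative interaction was found in 10 of 11 (median -1.99), against 6.62 percent. The median ratio of the P4 mean to the P3 mean plus 0.5 FPKM was 5.36 in WXS(F) and 20.1 in WXS(S). LOC_Os10g05990, the gene of the run with the highest level, had 366, 386 and 309.9 FPKM in the FP4 libraries, 279, 282 and 306 FPKM in SP4, 50.98, 49.9 and 50.9 FPKM in FP3, and 14.9, 15.1 and 10.0 FPKM in SP3 (interaction log2 fold change -1.69, SE 0.11, adjusted p = 4.66e-06, edgeR). LOC_Os10g05930 had log2 fold changes of 0.33 at P4 and 3.29 at P3, and LOC_Os10g05910 had 0.38 and 2.44. LOC_Os10g05970 had 78.7, 76.8 and 72.7 FPKM in the FP4 libraries, 80.1, 91.9 and 94.6 FPKM in SP4, 17.3, 13.4 and 16.04 FPKM in FP3, and 3.37, 3.48 and 3.06 FPKM in SP3. LOC_Os10g06000 had 71.9, 79.8 and 73.6 FPKM in the FP4 libraries, 66.5, 74.2 and 81.2 FPKM in SP4, 14.6, 12.7 and 12.4 FPKM in FP3, and 2.82, 1.796 and 2.27 FPKM in SP3. In these 5 genes no FP3 library was as low as an SP3 library. LOC_Os10g05790, the only one of the 11 with a GO term at hand (cell wall), had 17.1, 18.9 and 15.9 FPKM in the FP4 libraries, 11.99, 11.1 and 13.4 FPKM in SP4, 3.63, 2.29 and 2.25 FPKM in FP3, and 1.82, 2.66 and 1.11 FPKM in SP3, and its interaction was -0.08 and not called.

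Without the run, the 139 other genes had 42 called higher and 5 lower in FP4, 47 higher and 1 lower in FP3 (136 tested), and 8 positive and 30 negative interactions. Their median log2 fold changes were 0.46, 0.76 and -0.34. The shares of all genes tested were 15.4 and 6.87 percent at P4, 14.8 and 6.74 percent at P3, and 3.26 and 6.62 percent in the interaction. Of the 7 loci between the members of the run, 4 passed the level filter at P4 and 3 had means below 1 FPKM in all groups. LOC_Os10g05800, LOC_Os10g05810 and LOC_Os10g05940 had mean levels between 2.29 and 5.69 FPKM in every group. LOC_Os10g05950 had 9.99 FPKM in FP4, 15.9 FPKM in SP4, 4.90 FPKM in FP3 and 4.65 FPKM in SP3, at rank 311. Outside the run, LOC_Os10g05750 stood at rank 436. Reads that fit near-identical neighbours could have been split between loci by the authors' counting, and the degree of identity between these loci was not examined here.

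**Figure D5:**
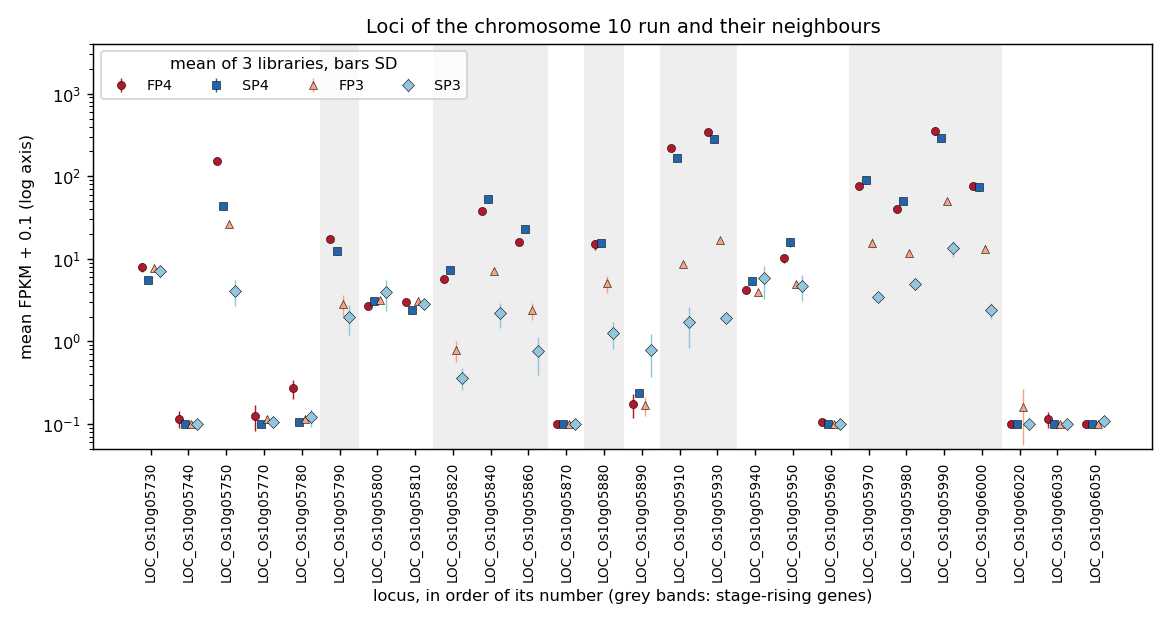
Mean FPKM plus 0.1 (log axis, bars SD, n = 3 libraries per group) of the loci of the chromosome 10 run and of its neighbours, in order of locus number; grey bands mark the 11 stage-rising genes. In the grey bands FP4 and SP4 lie close together and FP3 lies above SP3, with SP3 means of 0.263 to 13.3 FPKM, while LOC_Os10g05800 and LOC_Os10g05810 hold one level of 2.29 to 3.83 FPKM in all groups.

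The counts of the annotated groups stand beside the shares of all genes given above, 15.4 percent higher and 6.87 percent lower at P4, 14.8 and 6.74 percent at P3, and 3.26 and 6.62 percent in the interaction, and no group is set apart from them here. A gene not called can still have an adjusted p under 0.05 within the fold threshold. LOC_Os08g40440 was such a gene at P4 (log2 fold change -0.71, adjusted p = 0.00014, edgeR). Lipid genes formed an annotated group of 9 (lipid binding or lipid metabolic process). At P4, 1 was called higher and 2 lower in WXS(F), at P3 3 were called higher and 1 lower, and 1 positive and 4 negative interactions were called. The median log2 fold change was -0.01 at P4 and 0.07 at P3. LOC_Os03g59380, annotated with lipid binding, was the one with a called positive interaction (log2 fold change 1.07, SE 0.27, adjusted p = 0.0193, edgeR), with 22.3 ± 1.34 FPKM in FP4, 15.6 ± 2.21 in SP4, 1.17 ± 0.183 in FP3 and 1.75 ± 0.635 in SP3 (SD, n = 3 in each group here and in the following means). LOC_Os06g05550, annotated with lipid metabolic process and the extracellular region, had 41.8 ± 1.32 FPKM in FP4, 21.6 ± 0.551 in SP4, 5.85 ± 0.207 in FP3 and 1.91 ± 0.495 in SP3, and its log2 fold change was 0.97 at P4, just under the threshold, and 1.71 at P3, where it was called. LOC_Os10g40530, annotated with lipid binding, had 2.60 ± 0.486 FPKM in FP4, 3.08 ± 1.02 in SP4, 0.197 ± 0.0369 in FP3 and 0.351 ± 0.112 in SP3 and was called in no test. The lipid genes thus included the lowest log2 fold change of the 150 genes at P4 (LOC_Os01g49650) and the highest at P3 (LOC_Os11g02424).

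Cell wall and extracellular terms covered 13 genes. At P4, edgeR called 5 higher in WXS(F) and 0 lower (0 at an unadjusted p under 0.05, 0 by DESeq2), with a median log2 fold change of 0.97. At P3, 5 of 12 tested were called higher and 0 lower (1 at an unadjusted p under 0.05, 0 by DESeq2), with a median of 0.93, and 1 positive and 3 negative interactions were called. LOC_Os10g40720, annotated with cell growth, had 182 ± 7.59 FPKM in FP4, 67.5 ± 2.24 in SP4, 27.2 ± 1.55 in FP3 and 3.58 ± 0.678 in SP3 (log2 fold change 1.45, SE 0.042, adjusted p = 1.96e-06 at P4, edgeR), and its log2 fold change at P3 was 3.02. LOC_Os12g02310, annotated to the cell wall, had 52.8 ± 4.32 FPKM in FP4, 20.6 ± 2.13 in SP4, 7.43 ± 0.388 in FP3 and 2.26 ± 0.649 in SP3 and was called higher at both stages. LOC_Os05g38410 and its neighbour LOC_Os05g38420, both annotated with secondary metabolic process, had log2 fold changes of 1.83 and 1.87 at P4. LOC_Os01g73980, matched to a xylem cysteine proteinase of Arabidopsis and annotated with cell death, had 14.9 ± 0.424 FPKM in FP4, 7.57 ± 0.165 in SP4, 1.72 ± 0.219 in FP3 and 0.415 ± 0.0913 in SP3. It was called at P3, and at P4 its log2 fold change of 1.00 did not exceed the threshold. LOC_Os02g13660 was level at P4 and apart at P3, with 90.5 ± 4.22 FPKM in FP4, 86.1 ± 3.83 in SP4, 10.4 ± 1.21 in FP3 and 2.84 ± 0.702 in SP3. LOC_Os12g37650, annotated with protein binding, had 108 ± 3.91 FPKM in FP4, 66.0 ± 3.26 in SP4, 12.9 ± 1.38 in FP3 and 11.9 ± 2.80 in SP3 and was called in no test. LOC_Os01g28030, matched to a peroxidase of Arabidopsis but without one of these terms, had 14.7 ± 0.869 FPKM in FP4, 5.15 ± 0.469 in SP4, 1.51 ± 0.0715 in FP3 and 0.221 ± 0.133 in SP3 and was called higher at both stages. These examples were chosen for their annotation.

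Reproduction terms covered 8 genes, of which 3 were called higher in WXS(F) at P4 and 3 at P3 by edgeR, with 1 negative interaction. None was called lower at either stage by edgeR or DESeq2, with 2 lower at P4 and 1 at P3 at an unadjusted p under 0.05. LOC_Os06g04090, annotated with flower development and transcription factor activity, had 15.4 ± 1.36 FPKM in FP4, 6.39 ± 0.449 in SP4, 2.12 ± 0.153 in FP3 and 0.467 ± 0.171 in SP3 (log2 fold change 1.23, SE 0.068, adjusted p = 2.33e-05 at P4, edgeR). LOC_Os09g25850, annotated with cell differentiation and reproduction, had 10.9 ± 0.268 FPKM in FP4, 5.35 ± 0.324 in SP4, 1.23 ± 0.124 in FP3 and 0.256 ± 0.186 in SP3, and was called higher at both stages. LOC_Os05g04820 had 21.1 ± 2.28 FPKM in FP4, 16.1 ± 0.712 in SP4, 3.99 ± 0.393 in FP3 and 1.72 ± 0.138 in SP3 and was called at P3. LOC_Os08g40440, annotated with anatomical structure morphogenesis, had 17.95 ± 0.393 FPKM in FP4, 31.4 ± 3.96 in SP4, 4.70 ± 0.377 in FP3 and 2.89 ± 0.193 in SP3, and its interaction was called (log2 fold change -1.33, SE 0.24, adjusted p = 0.00297). LOC_Os05g41270, annotated with pollination, had 3.30 ± 0.292 FPKM in FP4, 4.87 ± 0.355 in SP4, 0.219 ± 0.00425 in FP3 and 0.464 ± 0.0853 in SP3, the one gene of the group with the higher mean in WXS(S) at both stages, and was not called. Of the 3 genes with transcription factor activity, LOC_Os06g04090 was the one called, while LOC_Os08g15020 had 8.58 ± 1.48 FPKM in FP4, 4.89 ± 0.397 in SP4, 1.56 ± 0.445 in FP3 and 1.49 ± 0.755 in SP3 and LOC_Os01g64590 had 3.20 ± 0.390 FPKM in FP4, 2.06 ± 0.361 in SP4, 0.300 ± 0.148 in FP3 and 0.240 ± 0.214 in SP3. OsWR1 (LOC_Os02g10760), a wax synthesis regulator of the ERF family in rice, had 18.7, 18.5 and 16.9 FPKM in the FP4 libraries, 9.15, 8.25 and 9.59 FPKM in SP4, 3.12, 2.98 and 2.50 FPKM in FP3, and 2.73, 3.58 and 1.44 FPKM in SP3 (log2 fold change 1.02, SE 0.068, adjusted p = 4.91e-05 at P4, edgeR), and at P3 its types overlapped.

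Photosynthesis and thylakoid terms covered 6 genes. At P4, 2 were called higher in WXS(F), at P3 1. Neither edgeR nor DESeq2 called a lower gene or an interaction in this group. At an unadjusted p under 0.05, 1 was lower at P4, 1 was lower at P3 and 3 had a positive interaction. The group does not take in LOC_Os12g19381, which had a called positive interaction and no such term at hand. LOC_Os01g41710 had 337, 366 and 349 FPKM in the FP4 libraries, 145, 164 and 172 FPKM in SP4, 64.3, 60.3 and 61.4 FPKM in FP3, and 34.0, 44.1 and 22.0 FPKM in SP3 (log2 fold change 1.15, SE 0.075, adjusted p = 4.69e-05 at P4, edgeR). Its log2 fold change of 1.01 at P3 lay on the threshold and did not pass it in 11 alternatives. LOC_Os08g10020 had 86.3 ± 3.14 FPKM in FP4, 42.0 ± 0.788 in SP4, 14.1 ± 1.55 in FP3 and 11.6 ± 2.43 in SP3 and was called at P4. LOC_Os08g01380 had 54.9 ± 3.84 FPKM in FP4, 62.4 ± 2.28 in SP4, 13.3 ± 0.332 in FP3 and 21.9 ± 7.93 in SP3, with the higher means in WXS(S), and was not called. LOC_Os02g47020 had 6.07 ± 0.634 FPKM in FP4, 5.09 ± 0.0687 in SP4, 1.09 ± 0.240 in FP3 and 1.01 ± 0.241 in SP3 and LOC_Os12g19470 had 2.12 ± 0.206 FPKM in FP4, 1.70 ± 0.110 in SP4, 0.164 ± 0.0268 in FP3 and 0.225 ± 0.0804 in SP3, and neither was called.

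Transport terms covered 6 genes, with 3 called higher and 1 lower at P4, and 1 lower at P3. LOC_Os11g02369, close in locus number to LOC_Os11g02424 on chromosome 11, had 478, 508 and 512 FPKM in the FP4 libraries, 239, 233 and 265 FPKM in SP4, 100.5, 87.6 and 89.2 FPKM in FP3, and 74.1, 75.5 and 34.5 FPKM in SP3 (log2 fold change 1.02, SE 0.065, adjusted p = 4.31e-05 at P4, edgeR), a call near the threshold that was lost in 4 alternatives. LOC_Os06g08080, annotated with transporter activity, had 174 ± 10.5 FPKM in FP4, 72.5 ± 3.88 in SP4, 30.0 ± 1.27 in FP3 and 17.7 ± 5.37 in SP3 and was called at P4. LOC_Os02g13870 had 174 ± 8.95 FPKM in FP4, 167 ± 5.18 in SP4, 58.9 ± 3.73 in FP3 and 71.0 ± 19.9 in SP3 and was called in no test. Of the 26 genes with other terms, 7 were called higher and 1 lower at P4, and 9 higher at P3. Of the 84 without a term, 22 were called higher and 2 lower at P4, and 36 of 82 tested were called higher at P3.

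Lists of marker genes, put together for this work from general knowledge of rice, were read in the same libraries. Their calls, here and in the next paragraph, stand beside 15.4 percent of all genes called higher and 6.87 percent lower at P4. At P3 the shares were 14.8 and 6.74 percent, and in the interaction 3.26 percent were called positive and 6.62 percent negative. The set itself holds 150 of the 15410 candidate loci. Of 10 anther lipid and sporopollenin genes 3 were in the set (LOC_Os10g33250, LOC_Os04g24530 and LOC_Os07g22850), of 8 photosynthesis genes 2 (LOC_Os12g19470 and LOC_Os01g41710), and of 4 secondary wall genes, 6 tapetum transcription factors and 6 meiosis genes none. LOC_Os10g33250, annotated with lipid metabolic process, had 49.96, 57.6 and 47.2 FPKM in the FP4 libraries, 34.4, 37.6 and 28.1 FPKM in SP4, 14.6, 12.7 and 10.3 FPKM in FP3, and 13.6, 12.9 and 10.5 FPKM in SP3 and was not called. The whole anther lipid list had 6 genes called higher and 1 lower in FP4 (median log2 fold change 4.28), and 8 higher in FP3 (median 2.97). Its members in the set, with log2 fold changes of 0.59, -0.89 and -1.46 at P4, were not among the 6 higher there. The score uses the smaller of the FP4 and SP4 means and so disfavours genes with a low SP4 mean. This comparison is therefore partly fixed by the choice of the genes.

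The summed level of the 8 photosynthesis genes was 687.5 to 737 FPKM in FP4, 408 to 461 FPKM in SP4, 141 to 152.1 FPKM in FP3 and 128 to 196 FPKM in SP3, with 2 called higher and 1 lower in FP4, and 1 higher and 2 lower in FP3. That of the 6 meiosis genes was 12.1 to 13.5 FPKM in FP4, 37.6 to 42.3 FPKM in SP4, 28.6 to 35.2 FPKM in FP3 and 57.0 to 74.1 FPKM in SP3, with 4 called lower in FP4 and 3 lower in FP3. The 6 tapetum transcription factors summed to 34.1 to 38.6 FPKM in FP4, 68.3 to 74.1 FPKM in SP4, 21.0 to 26.2 FPKM in FP3 and 36.5 to 55.6 FPKM in SP3, with 1 called higher and 2 lower at P4 and 3 lower at P3. The 4 secondary wall genes summed to 160.5 to 181 FPKM in FP4, 13.7 to 15.97 FPKM in SP4, 5.43 to 5.90 FPKM in FP3 and 1.91 to 2.25 FPKM in SP3, with 4 called higher at P4 and 3 at P3. The sums did not overlap between types at either stage, except for photosynthesis at P3. In the interaction, 3 of the 8 photosynthesis genes were called positive and 0 negative (median 0.73). For the 4 secondary wall genes these counts were 3 and 0 (median 2.12), and for the 10 anther lipid genes 5 and 2 (median 1.78). The tapetum transcription factors had 1 and 0 (median 0.06) and the meiosis genes 0 and 2 (median -0.93). The part of these markers in the values of the 150 genes was not tested.

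ATAC-seq marks open chromatin as Tn5 hypersensitive sites (THSs), peaks called in each library on its own, with a score that rises as the p-value of the peak falls. Positions of the genes on the genome build of these files were not used here, so THSs were read only where the study's supplement had assigned a THS to one of the genes, which held for 11 of the 150. Those sites were selected by the study as different between WXS(F) and WXS(S) in these same libraries, so their presence by type is no independent result. Upstream of LOC_Os02g33550, on chromosome 2 from 19955923 to 19956504 (MSU7), a THS was called with scores of 106 and 144 in FP4 and 75.1 and 52.4 in SP4, and in none of the 4 P3 libraries. Its RNA was 60.3, 63.5 and 58.5 FPKM in the FP4 libraries, 20.0, 21.3 and 23.2 FPKM in SP4, 8.06, 8.41 and 8.26 FPKM in FP3, and 0.907, 0.940 and 0.728 FPKM in SP3. For this gene, 1 of the 11, the THS was thus called in the P4 libraries only. Its SP4 score of 52.4 lay near 51.3, the lowest score listed at these sites. A missing call at P3 can therefore be a peak just under the cut-off.

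At the other sites the calls were not split by stage in this way. At LOC_Os01g04350, an upstream and 5′ UTR site on chromosome 1 from 1940221 to 1941108 was called in all 8 libraries, with scores of 560 and 480 in FP4, 459 and 403 in SP4, 206 and 144 in FP3, and 243 and 385.5 in SP3. RNA of LOC_Os01g04350 was 99.2, 104 and 92.8 FPKM in the FP4 libraries, 25.4, 24.8 and 29.2 FPKM in SP4, 11.4, 10.9 and 9.79 FPKM in FP3, and 7.16, 8.91 and 3.45 FPKM in SP3. At LOC_Os11g18730, annotated with carbohydrate metabolic process, an intron and exon site on chromosome 11 from 10609900 to 10611785 had scores of 733 and 713.5 in FP4, 121 and 177 in SP4, 246 and 158 in FP3, and 73.3 and 99.8 in SP3. An intron site of LOC_Os10g31040, on chromosome 10 from 16228630 to 16229244, was called in 7 of 8 libraries, with scores of 304 and 401 in FP4 and 180 and 93.7 in SP4. At LOC_Os04g33450 a site on chromosome 4 from 20222697 to 20224003 was called in 5 libraries, both FP4, both FP3 and SP4 replicate 2. Its RNA was 58.2, 48.0 and 52.4 FPKM in the FP4 libraries, 9.44, 7.47 and 8.81 FPKM in SP4, 3.17, 2.34 and 3.06 FPKM in FP3, and 0.703, 0.439 and 0.494 FPKM in SP3. LOC_Os01g57968 had a downstream site with a score of 3100 in all 8 libraries. An identical value in every library can be an upper limit of the score, so it is not read as a level. Scores depend on the depth of each library, which the peak lists do not give, and were not compared between groups.

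In the chromosome 10 run, 3 genes had an assigned site, and the stretch from the first to the last of these sites ran from 2941995 to 3031812 (MSU7), 89818 bp. It held 15 and 14 THSs in FP4, 14 and 16 in SP4, 17 and 18 in FP3, and 14 and 11 in SP3. THSs covered 4.76% to 8.21% of it in each library. The whole of chromosome 10 held 14.2 to 16.3 THSs per 100 kb. The stretch begins at the site of LOC_Os10g05820 and so does not take in LOC_Os10g05790. The number of THSs in it overlapped between the P4 and the P3 libraries. At P3 it was higher in both FP3 libraries than in both SP3 libraries. With only THSs of a score of at least 100 it was 6 and 6 in FP3, against 7 and 8 in SP3. The direction between the types at P3 thus depended on the score cut-off, and it was not tested.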

How the data were processed

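RNA-seq (12 libraries) and ATAC-seq (8 libraries) of whole panicles were used, and ChIP-seq samples were not analysed here. The authors aligned strand-specific RNA-seq reads to MSU7 with HISAT2 and summarised them per gene with StringTie, and the deposited gene counts are whole numbers that appear to be StringTie estimates rounded up, so the smallest need not be tallies of reads. The deposited FPKM values were normalised by the authors for gene length and library size. ATAC-seq reads were aligned with Bowtie2 and peaks called per library with MACS, and the deposited score of a peak is the caller's, which rises as its p-value falls.

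The 150 genes and all gene lists were chosen with earlier results of these data known. Counts were tested over all genes with edgeR 4.0.16 (R 4.3.3; quasi-likelihood test, TMM, filter on low counts, Benjamini-Hochberg adjustment) in FP4 versus SP4, FP3 versus SP3 and the interaction, without the authors' own DESeq comparisons. On simulated counts with 200 genes changed 4-fold, 176, 159 and 150 were recovered in these tests, with 17, 9 and 10 false calls. Alternatives were DESeq2 1.42.0, limma 3.58.1 on log2(FPKM + 1) and log2(FPKM + 0.1), library totals without TMM, other filters, a replicate block, a model of all 12 libraries, other forms of the score, and leaving out each library.

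The genes named were the 10 highest scores, 3 on each side of the threshold, up to 5 called genes at each end of each test with a mean of at least 1 CPM, the 5 most equal at P4, the 5 highest at P4 and list members. Others were chosen for their annotation, for an assigned THS, or as loci of the chromosome 10 run. Python 3.11.15, pandas 2.3.3, numpy 2.4.6 and matplotlib 3.10.9 were used. The reference tables do not hold these locus identifiers, so the few names and matches come from the study's supplement, and gene positions and sequences were not used here.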

Additional observations from a re-analysis of the deposited data

Results flagged for a closer look

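Among the genes named by rule, 22 had a difference between WXS(F) and WXS(S) that differed between P4 and P3 by edgeR's interaction test. The values are the log2 change of the WXS(F) over WXS(S) ratio, P4 over P3. Negative values were -4.48 for LOC_Os07g22850, -3.70 for LOC_Os11g02424, -3.68 for LOC_Os04g24530, -3.19 for LOC_Os05g30400 and -3.14 for LOC_Os03g48220. The fitted value of -7.66 for LOC_Os04g43800 rests on SP3 libraries without a count and gives no size. In the chromosome 10 run the values were -2.91 for LOC_Os10g05930, -1.98 for LOC_Os10g05910 and -1.69 for LOC_Os10g05990. Genes annotated with lipid binding had -2.55 (LOC_Os08g43290), -2.08 (LOC_Os09g35700) and -1.62 (LOC_Os01g49650). The remaining negative values were -1.77 for LOC_Os02g33550, -1.56 for LOC_Os09g30320, -1.53 for LOC_Os08g38810, -1.14 for LOC_Os05g33150 and -1.08 for LOC_Os03g47910.

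Positive values were 1.96 for LOC_Os04g32960, 1.33 for LOC_Os12g19381, 1.33 for LOC_Os09g36120, 1.29 for LOC_Os01g41140 and 1.16 for LOC_Os05g48270. The calls of LOC_Os04g43800 and LOC_Os09g36120 were each lost in 13 alternatives, and those of LOC_Os01g49650 and LOC_Os09g30320 in 10 each. LOC_Os04g43800 and LOC_Os09g36120 did not pass the filter at P3 and entered the interaction test only through their P4 levels.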

How the results depend on the processing

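The 47 genes called between FP4 and SP4, 57 between FP3 and SP3 and 48 in the interaction became 48, 57 and 49 with DESeq2. With limma on log2(FPKM + 1) they became 40, 37 and 39, and the interaction of LOC_Os11g02424 turned from -3.70 to 0.38; the positive share of interaction calls there was 35.9%, against 16.7%. Leaving out 1 library gave 43 to 49, 50 to 62 and 41 to 57 calls. With the replicate block the counts were 47, 57 and 46; same-numbered libraries did not deviate together (correlations -0.018 to 0.018), so the numbers were not taken as pairs. Without TMM factors, the median of all genes shifted to -0.11 at P4 and -0.15 in the interaction, with 41, 57 and 51 calls (5 positive and 46 negative in the interaction). With DESeq2 and without the filter, the median of all genes was 0.40 and 0.36 at P4 and 0.34 and 0.27 in the interaction, against 0.01, -0.02, 0.02 and -0.05 over the genes that pass the filter, a set of genes chosen after seeing the data. Of 958 alternative values for 61 calls of named genes, 875 kept the call, 82 lost it and 1 reversed, and 46 calls were kept in all alternatives that gave a value. Other forms of the score found 116 to 137 of the 150 genes again, and leaving out 1 library at least 139. Alternatives for THSs at gene start sites were not run, since gene positions on this build were not used. THSs were instead read at sites assigned by the study, a choice made after seeing the data. Levels near 0 counts at P3 limit the size of fold changes there.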
